A study of Mus musculus with 7 samples.

Results

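The genes described here are the BH3-only genes and the pair of effector genes of mitochondrial cell death, chosen by name: Bcl2l11 (BIM), Bbc3 (PUMA), Pmaip1 (NOXA), Bid, Bad, Bik and Bmf, and the effectors Bax and Bak1. These 9 genes are a small part of the 11635 genes that were assembled in at least 1 library, and 8 of the 9 were assembled in every library. Bik was assembled in none. The libraries came from primary B cells of wild-type C57BL/6 mice. There were 7 of them, 1 per condition: anti-IgM, BAFF, or anti-IgM with BAFF, each for 8 h and for 30 h, and unstimulated cells at 0 h. Anti-IgM is an antibody that crosslinks the antigen receptor, and BAFF is a survival cytokine of B cells. No culture without a stimulus was among the libraries, so stimulus and time in culture cannot be told apart in any comparison with the unstimulated cells. The number and age of the mice, the doses and the way the B cells were isolated are not given in the sources used here. With 1 library per condition there is no spread between replicates, no test was possible and no p-value is given.

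In mitochondrial cell death, BAX and BAK form pores in the outer mitochondrial membrane and release cytochrome c. BCL2, BCL-XL, MCL1, BCL-W and A1 hold them in check. The BH3-only proteins bind these guardians through a short helix, the BH3 domain. BIM, PUMA and the cleaved form of BID can also engage BAX and BAK directly, while BAD, BIK and BMF act mainly by occupying guardians, and NOXA prefers MCL1. In mouse B cells, BIM is known as the death protein of cells that meet self antigen through the antigen receptor, and BAFF is known to counter it.

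The core of the BH3 domain is what these genes share in sequence, so its codons are shown for 7 of the 8 genes with a level. The gene left out is Pmaip1, for which no match is given, so the pattern used is not shown to cover it. Each run holds 9 codons read from GENCODE M21 transcripts (GRCm38). They were found as the match in frame to a leucine codon, then 3 codons of any kind, a glycine, alanine or serine codon, an aspartate codon and a codon for an acidic residue or glutamine. Each of the 7 coding sequences held exactly 1 match. Capitals mark the leucine codon, the small residue and the aspartate.
Bcl2l11 (chr2:128147150-128147176, + strand): CTGcggcggatcGGAGACgagttcaac
Bbc3 (chr7:16313773-16313799, + strand): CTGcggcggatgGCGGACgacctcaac
Bid (chr6:120897289-120897315, - strand): CTCgcccaaataGGCGATgagatggac
Bad (chr19:6950792-6950818, + strand): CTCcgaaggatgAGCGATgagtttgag
Bmf (chr2:118545100-118545126, - strand): CTTcagtgtattGCAGACcagttccat
Bax (chr7:45465997-45466023, - strand): CTCcggcgaattGGAGATgaactggac
Bak1 (chr17:27022531-27022557, - strand): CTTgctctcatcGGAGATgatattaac

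Levels are FPKM, fragments scaled to transcript length and to mapped reads, as Cufflinks gave them for transcripts it assembled in each library on its own. A gene's level is the sum over its transcripts of at least 300 bases on its strand. The deposited interval was read as 2 standard deviations of counting and assignment error either way. A gene assembled in both libraries, with at least 1 FPKM in one of them, was counted as different when its intervals were apart and log2(FPKM + 1) differed by 1 or more. A second measure, reads over the exons on either strand, was calculated back from the same files and is not independent of the first. Mapped reads recovered from the files were 18.7 M to 28.5 M in the 6 stimulated libraries and 21.8 M in the unstimulated one.

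Against the unstimulated cells, the death genes split. Bcl2l11 was higher and Pmaip1 lower in the stimulated libraries, Bbc3, Bid, Bmf and Bax were counted as higher in 1 or 2 comparisons each, and Bad and Bak1 were counted in none. Anti-IgM at 8 h gave 3 of the 8 genes counted as different (Bcl2l11 and Bbc3 higher, Pmaip1 lower), beside 21.3% of all 9832 genes compared. BAFF at 8 h gave 2 of 8 (Bcl2l11 higher, Pmaip1 lower), beside 9.99% of 9885 genes. Both stimuli at 8 h gave 4 of 8 (Bcl2l11, Bbc3 and Bax higher, Pmaip1 lower), beside 21.1% of 9694 genes. At 30 h, anti-IgM gave 3 of 8 (Bcl2l11 and Bmf higher, Pmaip1 lower), beside 15.7% of 9912 genes. BAFF at 30 h gave Pmaip1 alone, 1 of 8, beside 9.29% of 9957 genes. Both stimuli at 30 h gave 3 of 8 (Bcl2l11 and Bid higher, Pmaip1 lower), beside 16.2% of 9874 genes. The median difference of the 8 genes was 0.43, 0.48 and 0.54 on the log2 scale with anti-IgM, BAFF and both at 8 h, beside 0.05, 0.12 and 0.11 for all genes. At 30 h it was 0.31, -0.01 and 0.05, beside 0.06, 0.07 and 0.02 for all genes. Intervals alone were apart for 55.3% to 71.3% of all genes in these comparisons and for 37.8% to 67.2% of all genes in those between stimulated libraries, so intervals apart are common and are given below as a description. The 6 comparisons share the unstimulated library.

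**Figure D1:**
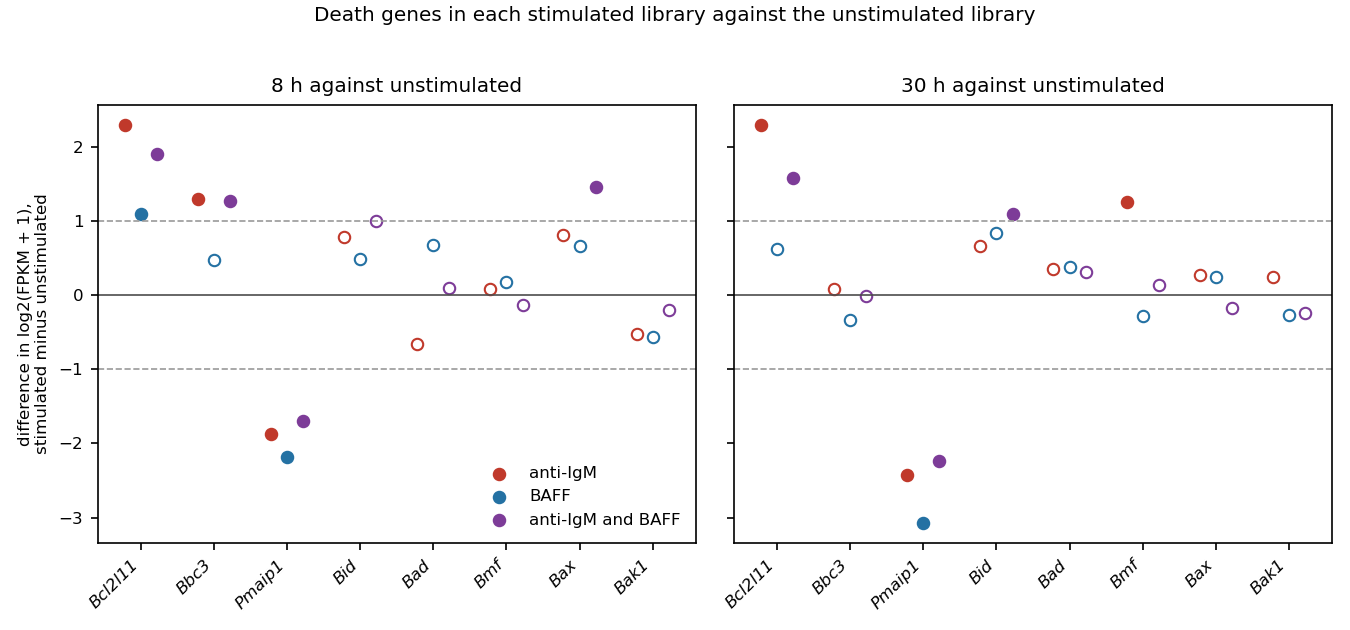
Difference in log2(FPKM + 1), stimulated minus unstimulated, for the 8 death genes at 8 h (left) and 30 h (right), with anti-IgM, BAFF and both in red, blue and purple. Filled points were counted as different, open points were not, and dashed lines mark a difference of 1 either way; Pmaip1 lies below the lower line in all 6 comparisons, and Bcl2l11 with BAFF lies lowest of its 3 points at both times.

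Most macrophage markers and the globin gene Beta-s were higher in the unstimulated library as well. Of 14 macrophage markers, 6 to 9 were assembled in the stimulated libraries and 12 in the unstimulated one, with summed levels of 14.2 to 100.5 FPKM in the stimulated libraries and 248.7 FPKM in the unstimulated one. Their median difference from the unstimulated library ran from -3.19 to -2.15 over the 6 comparisons, with 6 to 9 markers compared in each. Some macrophage markers went the other way at 30 h. Marco had 9.57, 4.51 and 3.46 FPKM with anti-IgM, BAFF and both at 30 h, against 1.93 FPKM in the unstimulated library. Emr1 had 48.2 FPKM with BAFF at 30 h, against 32.8 FPKM, and Lyz2 had 16.8 FPKM with anti-IgM and 19.8 FPKM with BAFF at 30 h, against 16.3 FPKM. Cd68 was assembled in no library. Erythroid markers summed to 0 to 48.1 FPKM in the stimulated libraries and 221 FPKM in the unstimulated one, of which Beta-s made up 218 FPKM. Alas2 had 3.0 FPKM with BAFF at 8 h and 2.79 FPKM in the unstimulated library. Of 5 B cell markers, 4 were assembled in every library, among them Cd79b, Ms4a1 and Pax5, and Cd79a in none, with sums of 719 to 1898 FPKM in the stimulated libraries and 1356 FPKM in the unstimulated one. No neutrophil marker of 7 was assembled anywhere, nor were Cd3d and Cd3e of the T cell. Of the 10 T cell markers, 1 or 2 were assembled in the stimulated libraries (14.9 to 95.4 FPKM summed), with Lck in every library, and 3 in the unstimulated one (24.3 FPKM). NK cell markers summed to 1.06 to 3.44 FPKM in the stimulated libraries and 1.97 FPKM in the unstimulated one, and plasma cell markers to 118.5 to 229 FPKM against 169 FPKM. The part of these cells in the differences from the unstimulated library was not tested. In such bulk samples, fewer cells of a type and less RNA per cell cannot be told apart.

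Bcl2l11 lies at chr2:128126038-128162547 on the + strand (mm10). It encodes BIM, which binds every guardian and can activate BAX and BAK. Its level at 8 h was 52.0 FPKM with anti-IgM, 21.9 FPKM with BAFF and 39.2 FPKM with both. At 30 h it was 51.7 FPKM with anti-IgM, 15.6 FPKM with BAFF and 31.2 FPKM with both, and the unstimulated library had 9.81 FPKM. All 6 stimulated libraries lay above the unstimulated one with intervals apart. The order was anti-IgM, then both, then BAFF at each time, and the only neighbours in it with overlapping intervals were anti-IgM at 8 h and at 30 h. Against the unstimulated cells, the log2 differences at 8 h were 2.29 with anti-IgM, 1.08 with BAFF and 1.90 with both. At 30 h they were 2.29, 0.62 and 1.58, and the value for BAFF was not counted. The call with BAFF at 8 h was near the threshold and was lost when values were centred on the median gene (0.97) or scaled to the upper quartile (0.99).

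The level of Bcl2l11 was spread over 2 spliced forms. One keeps a segment of 168 bases (NM_207680, the EL form) and the other splices it out (NM_207681, the L form). The S form (NM_009754) was not assembled in any library. The segment lies at chr2:128128757-128128924 on the + strand and is coding over its whole length, which is 56 codons. It is shown because it is the stretch by which the forms are told apart, with the bases at its ends that the L form uses as splice sites in capitals.
Bcl2l11 segment kept in the EL form: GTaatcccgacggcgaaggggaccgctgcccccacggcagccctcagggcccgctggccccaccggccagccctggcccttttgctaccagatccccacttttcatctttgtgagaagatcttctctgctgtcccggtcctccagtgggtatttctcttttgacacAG
The EL form had 21.4 FPKM with anti-IgM, 8.62 FPKM with BAFF and 20.2 FPKM with both at 8 h, and 24.1, 7.81 and 16.4 FPKM with the same stimuli at 30 h. The L form had 30.6, 13.3 and 19.1 FPKM with anti-IgM, BAFF and both at 8 h, then 27.6, 7.78 and 14.8 FPKM at 30 h. In the unstimulated library the L form was the only one assembled, at 9.81 FPKM, which does not show that the EL form was absent. The EL form made up 41.1% of the gene's FPKM with anti-IgM, 39.3% with BAFF and 51.4% with both at 8 h. At 30 h its share was 46.6%, 50.1% and 52.6%. By the most abundant form alone, Bcl2l11 differed from the unstimulated library by 0.40 with BAFF at 8 h, 0.97 with both at 8 h and 0.69 with both at 30 h, and those calls were lost. The unstimulated library also held 3 pieces with no strand inside the gene's introns, at 16.9, 12.7 and 6.22 FPKM and 237 to 338 bases long. None of them shared a base with its exons, and they are not in the level.

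**Figure D2:**
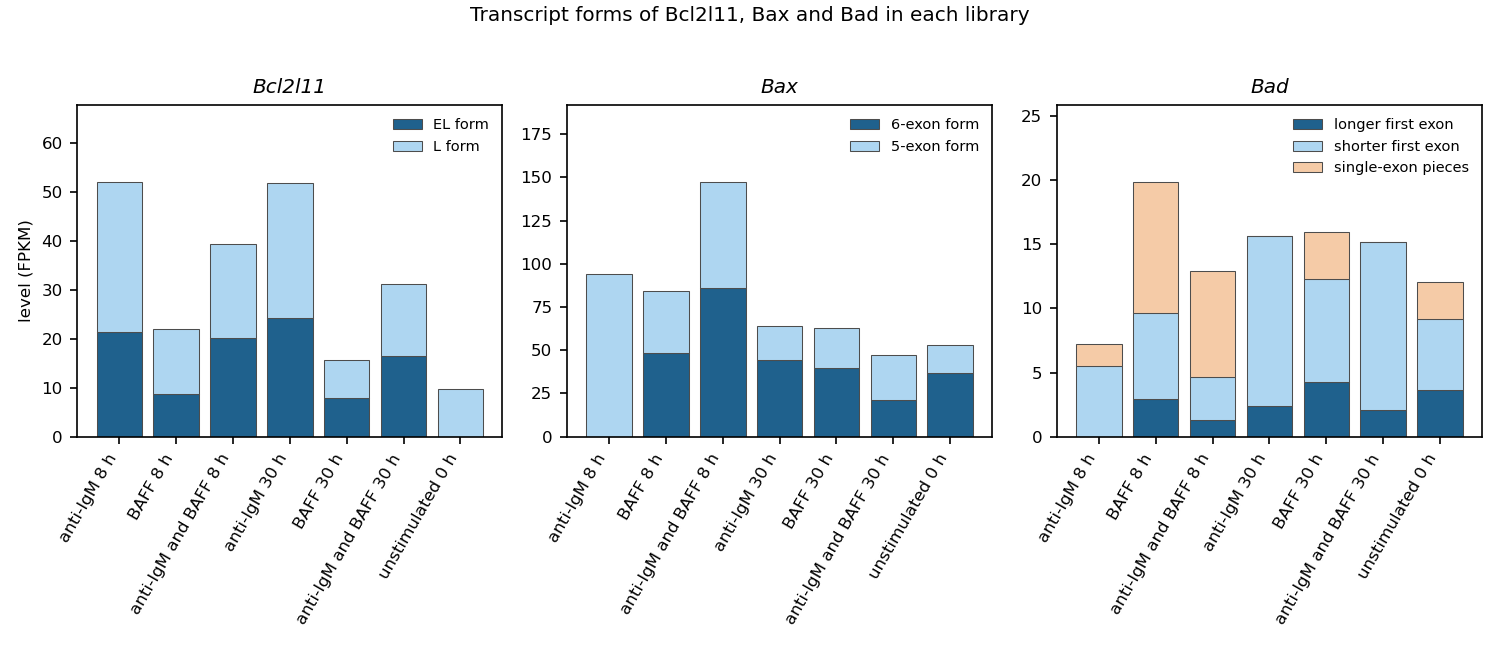
Stacked bars of FPKM by transcript form of Bcl2l11, Bax and Bad in each library, 8 h then 30 h, with the unstimulated library on the right. Bcl2l11 showed the L form alone in the unstimulated library, Bax the 5-exon form alone with anti-IgM at 8 h, and single-exon pieces made up part of Bad in 5 libraries.

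Bbc3, which encodes PUMA and is a classic target of p53, lies at chr7:16309580-16318334 on the + strand. Its level at 8 h was 15.1 FPKM with anti-IgM, 8.16 FPKM with BAFF and 14.8 FPKM with both. At 30 h it was 5.96, 4.23 and 5.49 FPKM, and in the unstimulated library 5.58 FPKM. Anti-IgM and both at 8 h stood above the other libraries, except that the wide interval of BAFF at 8 h (1.56 to 14.8 FPKM) reached into theirs. In the unstimulated library Bbc3 was assembled only as 3 fragments, so that level rests on pieces of the gene. Reads over exons were calculated back from the same pieces, with 200 bases taken off each. By that measure Bbc3 had 9.61, 6.22 and 11.1 with anti-IgM, BAFF and both at 8 h. It had 4.37, 2.96 and 4.15 at 30 h, against 1.57 in the unstimulated library. Reads in gaps between the unstimulated fragments are not in the 1.57, so that value also depends on how the gene was assembled. All 6 stimulated libraries were higher than the unstimulated one by that measure. The log2 differences at 8 h were 1.29 with anti-IgM and 1.26 with both by FPKM, and 2.04 and 2.24 by reads. With BAFF at 8 h they were 0.48 by FPKM and 1.49 by reads. With both at 30 h the sign turned, from -0.02 by FPKM to 1.00 by reads.

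Pmaip1 lies at chr18:66458604-66465558 on the + strand and encodes NOXA, a partner of MCL1. It was the member with the widest range, 9.37-fold between its highest and lowest library. The 8 h levels were 18.8 FPKM with anti-IgM, 15.0 FPKM with BAFF and 21.4 FPKM with both. The 30 h levels were 12.4, 7.62 and 14.3 FPKM, against 71.4 FPKM in the unstimulated library. Every stimulated library lay far below the unstimulated one with intervals apart, and BAFF was the lowest at each time. The log2 differences were -1.87, -2.18 and -1.69 with anti-IgM, BAFF and both at 8 h, then -2.43, -3.07 and -2.24 at 30 h. All 6 calls held under every alternative tried, and reads over exons gave nearly the same values (-1.87, -2.18 and -1.69 at 8 h, -2.46, -3.07 and -2.25 at 30 h). The summed macrophage and erythroid markers were also higher in the unstimulated library, though Marco, Emr1 and Lyz2 had higher values in some stimulated libraries of 30 h, and the part of these cells in this difference was not tested.

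Bid links death receptors to the mitochondrion: caspase 8 cleaves its product into the active form. It lies at chr6:120893119-120916820 on the - strand. Its level was 48.9 FPKM with anti-IgM, 39.8 FPKM with BAFF and 56.9 FPKM with both at 8 h, and 44.8, 50.5 and 61.0 FPKM at 30 h, against 28.0 FPKM in the unstimulated library. All 6 stimulated libraries lay above the unstimulated one with intervals apart, and both stimuli together gave the highest level at each time. The log2 differences were 0.78, 0.49 and 1.00 at 8 h and 0.66, 0.83 and 1.09 at 30 h. The value for both at 8 h was 0.997, just short of the threshold, and the one for both at 30 h was counted. A piece with no strand, 19674 bases long, ran along Bid with anti-IgM at 8 h at 1.8 FPKM and is not in the level. Bcl2l13 lies within 1000 bases on the opposite strand. It had 31.9 FPKM with both at 30 h, the library in which Bid was counted, 8.06 to 9.25 FPKM in the other stimulated libraries and 8.61 FPKM in the unstimulated one. Its part in the level of Bid was not tested, and reads of such neighbours could not be told apart where the pieces carry no strand.

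**Figure D3:**
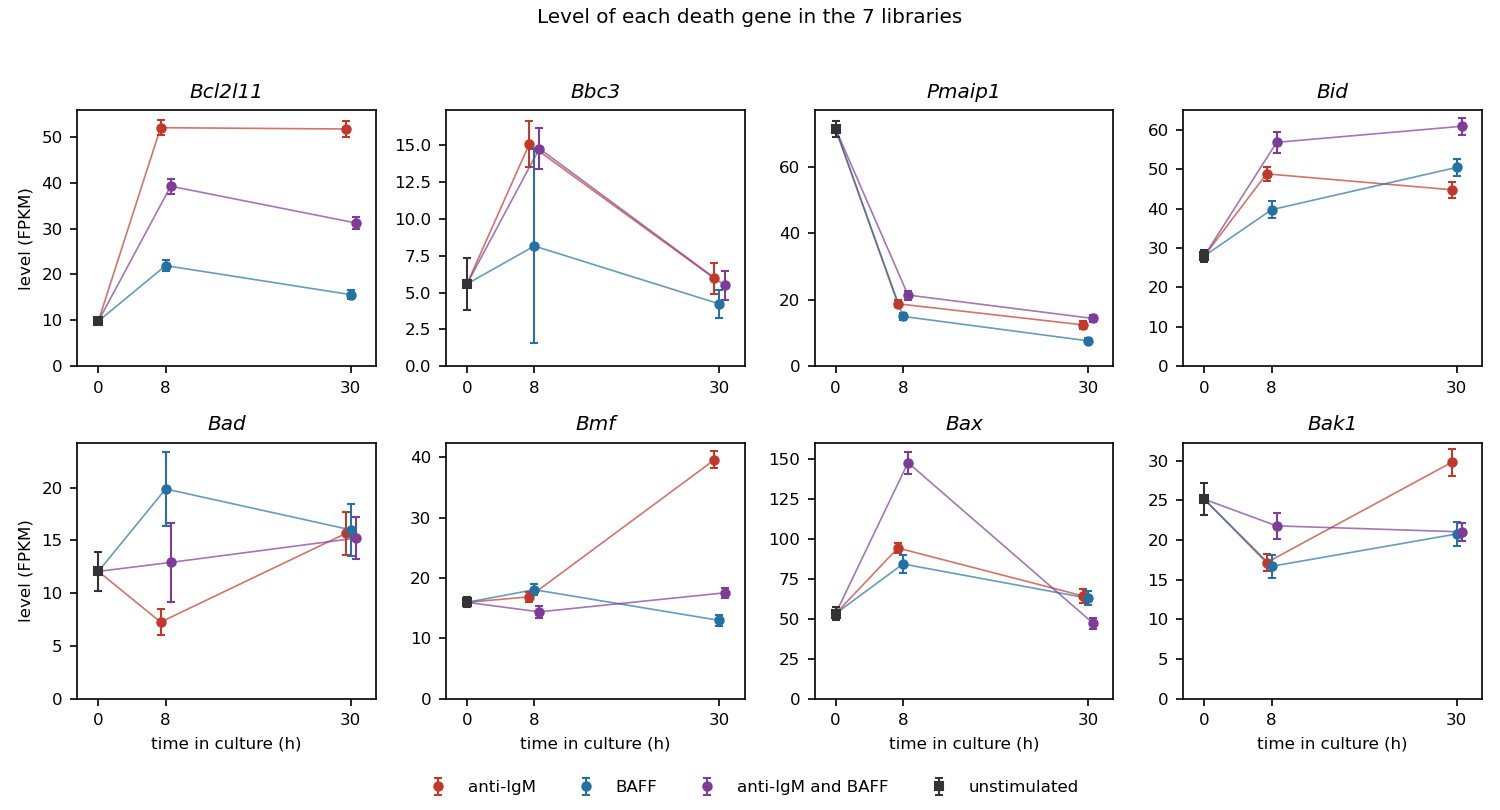
Level of each of the 8 death genes in FPKM against time in culture, with the unstimulated library as a grey square at 0 h and the stimulated libraries as circles at 8 h and 30 h; bars are the deposited intervals and points are shifted sideways for sight. Bcl2l11 with anti-IgM lies at 52.0 and 51.7 FPKM, Pmaip1 lies far below its unstimulated level throughout, and Bmf stands apart with anti-IgM at 30 h.

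Bad encodes a guardian-binding protein that growth factor signalling silences by phosphorylation, a step that RNA does not show. It lies at chr19:6941855-6951893 on the + strand. Its summed level was 7.25 FPKM with anti-IgM, 19.9 FPKM with BAFF and 12.9 FPKM with both at 8 h, and 15.6, 16.0 and 15.2 FPKM at 30 h, against 12.1 FPKM in the unstimulated library. Anti-IgM at 8 h stood below all other libraries, whose intervals formed an overlapping chain. Part of these sums came from single-exon pieces, with 1.77, 10.2 and 8.23 FPKM in the 8 h libraries of anti-IgM, BAFF and both, 3.69 FPKM with BAFF at 30 h and 2.87 FPKM in the unstimulated library. The spliced forms alone came to 5.48, 9.66 and 4.68 FPKM with anti-IgM, BAFF and both at 8 h. They came to 15.6, 12.3 and 15.2 FPKM at 30 h, and to 9.18 FPKM in the unstimulated library. By spliced forms the library with both stimuli at 8 h was the lowest, next to anti-IgM at 8 h. No call was made against the unstimulated cells by summed FPKM (-0.66, 0.68 and 0.09 at 8 h, 0.35, 0.38 and 0.31 at 30 h). By the most abundant form, Bad was counted as higher with anti-IgM (1.13) and with both (1.12) at 30 h. By reads over exons it was not counted, and the difference with both at 8 h was -0.57. Gpr137 lies within 1000 bases on the opposite strand at 5.68 to 17.9 FPKM in the stimulated libraries and 12.9 FPKM in the unstimulated one.

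Bmf, whose product is known for binding the cytoskeleton until stress frees it, lies at chr2:118528755-118549678 on the - strand. Its level was 16.9, 18.0 and 14.4 FPKM with anti-IgM, BAFF and both at 8 h, then 39.6, 13.0 and 17.5 FPKM at 30 h, against 16.0 FPKM in the unstimulated library. Anti-IgM at 30 h stood alone above the rest, which ran from 13.0 to 18.0 FPKM. The log2 difference of anti-IgM at 30 h from the unstimulated library was 1.26 by FPKM and 1.28 by reads over exons. The other 5 differences ran from -0.28 to 0.17. A 6-exon form with an extra exon of 77 bases (chr2:118547294-118547370) was assembled with anti-IgM at 8 h, with both at 8 h and with anti-IgM at 30 h, at 4.07, 2.38 and 4.79 FPKM. With BAFF at 30 h, a 4-exon form at 1.57 FPKM began inside that exon (chr2:118528755-118547368), so the exon was not confined to libraries that received anti-IgM.

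Bik, at chr15:83526862-83544635 on the + strand, encodes a BH3-only protein of the endoplasmic reticulum. It was assembled in none of the 7 libraries. The files list only assembled transcripts, so this sets no upper limit on its level.

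Bax lies at chr7:45461511-45466898 on the - strand and had the highest level among the members in each stimulated library except with both at 30 h, where Bid was higher. Its level was 94.1, 84.2 and 147 FPKM with anti-IgM, BAFF and both at 8 h, then 64.2, 62.8 and 47.1 FPKM at 30 h, against 53.1 FPKM in the unstimulated library. All 3 libraries of 8 h lay above all others with intervals apart, and both at 30 h overlapped the unstimulated library. The log2 differences at 8 h were 0.81, 0.65 and 1.46 by FPKM and 1.40, 0.73 and 1.59 by reads over exons. At 30 h they were 0.27, 0.24 and -0.17 by FPKM, and 0.09, 0.28 and 0.09 by reads. With anti-IgM at 8 h, only a 5-exon form was assembled, which keeps the first intron of 470 bases (chr7:45466272-45466741). The 6-exon form without that intron (NM_007527) had 48.2 and 85.9 FPKM with BAFF and both at 8 h, then 44.2, 39.9 and 21.1 FPKM with anti-IgM, BAFF and both at 30 h, against 36.9 FPKM in the unstimulated library. The 5-exon form had 94.1, 36.0 and 61.6 FPKM at 8 h and 19.9, 22.8 and 25.9 FPKM at 30 h, against 16.2 FPKM in the unstimulated library. It began inside that intron in the unstimulated library, with both at each time and with anti-IgM at 30 h. In those libraries it is therefore not shown to keep the whole intron or to hold the first exon. FPKM is divided by the length of the form to which reads are assigned. Reads over exons, which use the same exons in every library, put Bax at 80.9 with anti-IgM, 50.2 with BAFF and 91.9 with both at 8 h.

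Bak1, the partner of Bax in pore formation, lies at chr17:27019795-27028626 on the - strand and had the narrowest range, 1.79-fold. Its level was 17.1, 16.7 and 21.8 FPKM with anti-IgM, BAFF and both at 8 h, then 29.8, 20.7 and 21.0 FPKM at 30 h, against 25.1 FPKM in the unstimulated library. Anti-IgM at 30 h was the highest library and the anti-IgM and BAFF libraries of 8 h the lowest. No comparison with the unstimulated cells reached the threshold. The log2 differences were -0.53, -0.56 and -0.20 at 8 h and 0.24, -0.26 and -0.25 at 30 h. By reads over exons they were -0.34, -0.41 and -0.06 at 8 h and 0.41, -0.12 and -0.05 at 30 h. By the most abundant form alone, each negative value turned positive. Those values became 0.23, 0.20 and 0.56 at 8 h, and 0.49 with BAFF and 0.51 with both at 30 h. A 7-exon form, with an intron of 372 bases inside the last exon, was assembled in the unstimulated library only, at 10.7 FPKM. Ggnbp1 lies within 1000 bases on the opposite strand at 2.09 to 3.79 FPKM in the stimulated libraries and 6.24 FPKM in the unstimulated one.

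Between the single stimuli, the question is how antigen receptor signalling and BAFF differ in their death genes. Bcl2l11 was higher with anti-IgM than with BAFF at both times, by 1.21 on the log2 scale at 8 h and 1.67 at 30 h. At 8 h, 2 of 8 genes were counted, beside 13.2% of 9923 genes, and the second was Bad, lower with anti-IgM by FPKM (-1.34). That call was lost by reads over exons (-0.78) and by the most abundant form (-0.25). At 30 h, 2 of 8 were counted, beside 8.69% of 10015 genes, and the second was Bmf, higher with anti-IgM (1.54). Pmaip1 was higher with anti-IgM by 0.31 at 8 h and 0.64 at 30 h, with intervals apart but under the threshold. The median of the 8 genes was 0.23 at 8 h and 0.46 at 30 h, beside -0.05 and 0.00 for all genes.

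Adding BAFF to anti-IgM went with less Bcl2l11 at both times and with less Bmf at 30 h. At 8 h no member of 8 was counted, beside 6.14% of 9912 genes. At 30 h, 1 of 8 was counted, beside 5.33% of 10099 genes: Bmf, with 17.5 FPKM with both and 39.6 FPKM with anti-IgM alone (-1.13). By the most abundant form Bmf differed by -0.95 and was not counted. Bcl2l11 differed by -0.40 at 8 h and -0.71 at 30 h, with intervals apart at both times and nearly the same by reads over exons (-0.39 and -0.71), and was not counted. Bid was higher with both by 0.22 and 0.44. Bax was higher with both by 0.64 at 8 h by FPKM but by 0.18 by reads over exons, and at 30 h its difference was -0.44 by FPKM and near 0 by reads. The 2 measures of Bad at 8 h were 0.75 and 0.08. The median of the 8 genes was 0.20 at 8 h and -0.27 at 30 h, beside 0.02 and -0.04 for all genes.

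**Figure D4:**
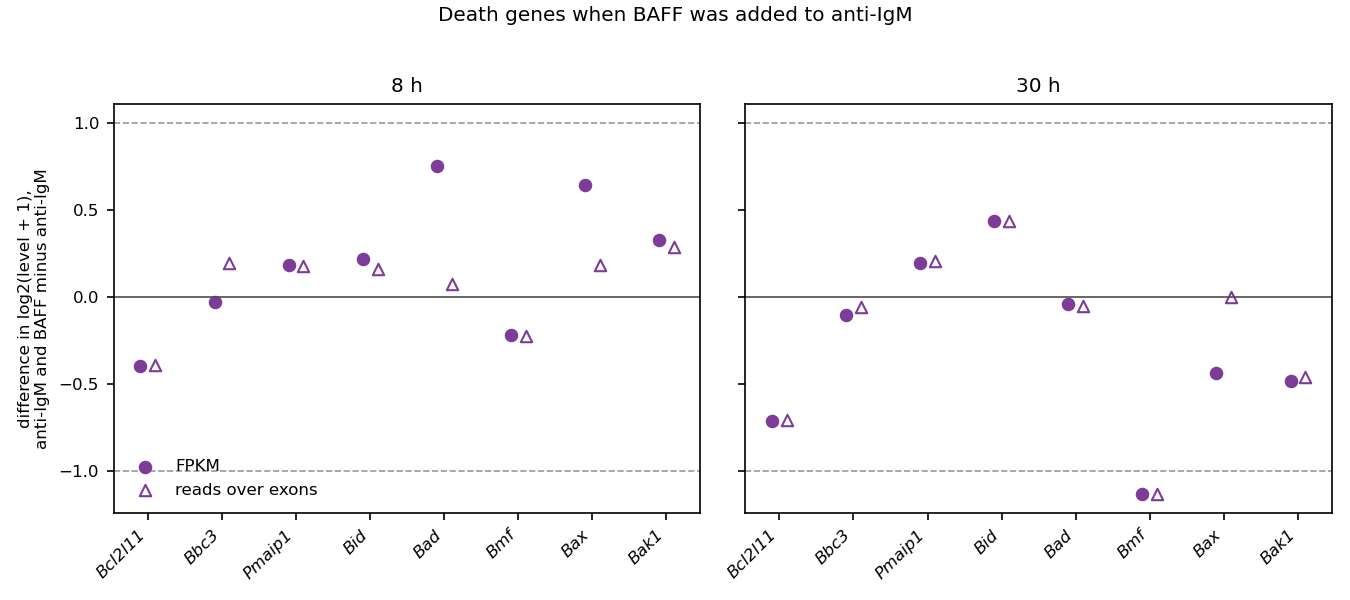
Difference in log2(level + 1), anti-IgM and BAFF minus anti-IgM, for the 8 death genes at 8 h (left) and 30 h (right), by FPKM (filled circles) and by reads over exons (open triangles). The 2 measures lie close together for Bcl2l11, Pmaip1, Bid, Bmf and Bak1 and apart for Bad at 8 h and for Bax at both times; Bmf at 30 h is the one gene below -1.

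Adding anti-IgM to BAFF went with more Bcl2l11 at both times, but no member was counted. The background was 12.4% of 9812 genes at 8 h and 8.14% of 9981 genes at 30 h. Bcl2l11 had 39.2 FPKM with both and 21.9 FPKM with BAFF alone at 8 h (0.81), and 31.2 FPKM with both and 15.6 FPKM with BAFF alone at 30 h (0.96). Pmaip1 was also higher with both, by 0.49 and 0.83, and Bid by 0.51 and 0.27, all with intervals apart. The median of the 8 genes was 0.50 at 8 h and 0.29 at 30 h, beside 0.01 and -0.04 for all genes.

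At 30 h against 8 h, Bbc3 and Bax were lower with both stimuli, and Bmf was higher with anti-IgM. With anti-IgM, 3 of 8 genes were counted, beside 13.3% of 9970 genes: Bmf (1.18) and Bad (1.01) higher and Bbc3 (-1.21) lower at 30 h. The calls of Bad and Bbc3 were lost by reads over exons, at 0.83 and -0.98. Bax with anti-IgM was not counted by FPKM (-0.55), while reads over exons gave -1.31. With BAFF none was counted, beside 7.85% of 9945 genes, and Pmaip1 had the largest difference (-0.89). With both, 2 of 8 were counted, beside 12.6% of 9782 genes: Bax (-1.63) and Bbc3 (-1.28), both lower at 30 h. By reads over exons these were -1.50 and -1.24. Bcl2l11 differed by -0.01 with anti-IgM, -0.47 with BAFF and -0.32 with both.

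Set against one another per length, the members changed places. In the unstimulated library Pmaip1 had the highest level, followed by Bax, Bid, Bak1, Bmf, Bad, Bcl2l11 and Bbc3. With anti-IgM at 30 h the order was Bax, Bcl2l11, Bid, Bmf, Bak1, Bad, Pmaip1 and Bbc3.

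The promoters of Bcl2l11, Bbc3 and Bax, the members counted as higher with both stimuli at 8 h, are shown as the 250 bases before the gene's start (RefSeq, GRCm38.p6). They were searched on both strands for the FOXO motif GTAAACA, the E-box CACGTG that MYC binds, a p53 half-site and an NF-kappaB site, because factors that bind these motifs are known to regulate death genes. Capitals mark the matches.
Bcl2l11 promoter (chr2:128125788-128126037, + strand): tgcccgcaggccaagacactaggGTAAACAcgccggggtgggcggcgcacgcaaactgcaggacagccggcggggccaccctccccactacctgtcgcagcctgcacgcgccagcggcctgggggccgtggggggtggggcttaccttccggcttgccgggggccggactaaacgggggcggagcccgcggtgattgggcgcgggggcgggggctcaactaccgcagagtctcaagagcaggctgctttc
Bbc3 promoter (chr7:16309333-16309582, + strand): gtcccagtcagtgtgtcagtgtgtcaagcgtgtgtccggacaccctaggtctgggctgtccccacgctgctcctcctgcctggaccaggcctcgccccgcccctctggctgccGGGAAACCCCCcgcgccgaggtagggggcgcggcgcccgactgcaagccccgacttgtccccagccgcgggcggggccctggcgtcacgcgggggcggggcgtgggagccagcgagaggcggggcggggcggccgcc
Bax promoter (chr7:45466899-45467148, - strand): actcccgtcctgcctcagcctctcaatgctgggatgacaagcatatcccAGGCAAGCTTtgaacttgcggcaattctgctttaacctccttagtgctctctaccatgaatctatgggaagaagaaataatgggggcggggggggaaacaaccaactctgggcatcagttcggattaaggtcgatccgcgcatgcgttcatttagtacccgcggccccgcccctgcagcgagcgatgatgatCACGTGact
The Bcl2l11 window held 1 FOXO match, the Bbc3 window 2 overlapping NF-kappaB matches, and the Bax window 1 p53 half-site, towards its far end, and 1 E-box near the start. The windows of Bid, Bad, Bmf and Bak1 held none of the 4 motifs. Of 32851 such windows in the table, 3.17% held the FOXO motif, 6.02% the E-box, 7.13% the p53 half-site and 7.25% the NF-kappaB site. The matches describe letters only.

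Of 8 genes upstream of the family, 6 could be compared with the unstimulated cells. None was counted as higher and 1 or 2 as lower in each comparison. Of all genes, those higher ran from 521 of 9957 (BAFF at 30 h) to 1189 of 9694 (both at 8 h). Those lower ran from 404 of 9957 (BAFF at 30 h) to 1031 of 9832 (anti-IgM at 8 h). Foxo1, of a family of transcription factors known to activate Bcl2l11, was lower with anti-IgM and with both at both times. Its level was 30.1 and 23.8 FPKM with anti-IgM and both at 8 h and 23.5 FPKM with each of them at 30 h, against 63.4 FPKM in the unstimulated library. With BAFF it had 48.7 and 44.3 FPKM at 8 h and 30 h and was not counted. Trp53 (p53) had 84.3, 89.5 and 95.4 FPKM with anti-IgM, BAFF and both at 8 h, then 80.9, 49.2 and 82.9 FPKM at 30 h, against 54.8 FPKM in the unstimulated library, and was not counted in any of them. Myc was counted as lower with BAFF at 8 h and with all stimuli at 30 h, but with anti-IgM and both at 8 h it had 263 and 264 FPKM, against 143 FPKM in the unstimulated library. Casp8, which cleaves BID, was lower with anti-IgM at 8 h, at 15.4 FPKM against 39.0 FPKM, and Foxo3 was lower with both at 8 h. Over the 6 genes the median log2 difference ran from -0.65 to -0.28.

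Of 9 other BCL2 family genes, 5 could be compared. With anti-IgM and with both, 2 were counted as higher and 1 as lower at each time, beside 15.7% to 21.3% of all genes in either direction. BAFF gave none at 8 h and 1 at 30 h, beside 9.99% and 9.29% of all genes. The guardian Bcl2l1 (BCL-XL) was higher with anti-IgM and with both at both times. Its level was 50.3, 13.9 and 50.7 FPKM with anti-IgM, BAFF and both at 8 h, then 33.1, 6.38 and 20.4 FPKM at 30 h, against 3.0 FPKM in the unstimulated library. The level with BAFF at 8 h was not counted as different, because the intervals overlapped. Bcl2 was lower with anti-IgM and both at both times, at 6.26 and 6.74 FPKM at 8 h and 12.4 and 14.0 FPKM at 30 h, against 29.6 FPKM in the unstimulated library. With BAFF it had 14.8 FPKM at 8 h and 20.8 FPKM at 30 h, both below the unstimulated library with intervals apart, and was not counted. Bcl2a1b (A1) was higher in the same 4 libraries, at 117 to 164 FPKM against 41.6 FPKM, but its near-identical copies Bcl2a1a and Bcl2a1d were not assembled and may share its reads. Mcl1, the partner of NOXA, had 133 to 229 FPKM in the stimulated libraries and 254 FPKM in the unstimulated one and was not counted. With BAFF, Bcl2l2 (BCL-W) at 30 h was the only gene counted, at 11.0 FPKM against 4.83 FPKM.

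All 11 genes downstream of the mitochondrion could be compared. With anti-IgM at 8 h, Cycs (cytochrome c) was the 1 gene counted as higher. Casp9, the initiator caspase of this pathway, was among 2 counted as lower, beside 21.3% of all genes in either direction. With both at 8 h, Diablo, an antagonist of caspase inhibitors, was the 1 higher gene. Casp9 was again among 2 lower ones, beside 21.1% of all genes. At 30 h, 1 gene was higher with anti-IgM, beside 15.7% of all genes. The mitochondrial channel gene Vdac1 was among 2 higher with both at 30 h, beside 16.2% of all genes. BAFF alone gave none at 8 h or 30 h, beside 9.99% and 9.29% of all genes. The median of the 11 ran from -0.13 to 0.24.

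For 7 of the 8 assembled members, the range over the libraries was at least 2-fold with intervals apart, and the genes with the most similar pattern were looked up among 8356 genes by Pearson's r of log2(FPKM + 1) over the 7 libraries. With 7 points and so many genes, high values are found for any pattern, and the values are a description. Nearest to Bcl2l11 were Vps29 (r = 0.995), Rnh1 (0.992) and Metap1 (0.990). Nearest to Pmaip1 were Rgs2 (0.984), Vps25 (0.979) and Slc25a25 (0.977), and Rgs2 had 18.9 FPKM in its lowest library, BAFF at 30 h, against 157.9 FPKM in the unstimulated library. Bax was most like Jdp2 (0.992), Nthl1 (0.985) and Mif4gd (0.980), and Bmf most like Shf (0.974), Fkbp8 (0.965) and Gzf1 (0.958). Among the closest to Bid were Snrnp35 (0.985) and Mdh2 (0.959). Bbc3 lay closest to Setd8 (0.991), Snhg5 (0.990) and Mat2a (0.989), and among the closest to Bad were Acat3 (0.947) and Ttc15 (0.947).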

How the data were processed

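RNA of 7 libraries of mouse B cells was reverse transcribed from poly-dT primers and made into libraries with an Illumina TruSeq kit, per the labels' protocols. The submitters' processing notes name the build mm10 and the tools CASAVA (1.8.2), TopHat2 (2.0.5), Bowtie2 (2.0.0.7), Cufflinks (2.0.2) and Cuffdiff. The authors deposited, for each library, assembled transcripts with FPKM and a lower and an upper bound, and a merged transcript set that holds positions and gene names but no levels. The protocol is not stated to keep strand, so the strand of a spliced piece rests on its splice sites. Single-exon pieces of Bad, Bbc3 and Pmaip1 were deposited with a strand and are in the levels, but have no splice sites to back it.

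Transcripts were named here by exon overlap on the same strand with the merged set, and FPKM was summed per gene over transcripts of at least 300 bases. Intervals of several transcripts were combined as the root of summed squares. The number of mapped reads was worked out from the intervals of genes with a single form over 3000 bases. Reads over exons were calculated back with 200 bases taken off each length. The 15 comparisons between libraries used a pseudocount of 1, a minimum of 1 FPKM in one library and a 2-fold difference with intervals apart, with no test, since each condition was 1 library. The intervals cover counting and assignment error only. Of 12 other settings tried, 1 (pieces with no strand added) was chosen after seeing the data. All members were named, and likeness followed a rule on Pearson's r. Some genes of the lists and of the likeness rule are not reported here. The members, lists and rules were chosen with earlier results of these data known. BH3 codons and the Bcl2l11 segment came from GENCODE M21 transcripts, and promoters from a RefSeq table (GRCm38.p6) with entries for 7 of the 9 members; the start nearest to the merged gene's start was used. The software was Python 3.11.15 with numpy 2.4.6, with pandas 2.3.3 for tables and with matplotlib 3.10.9 for figures.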

Additional observations from a re-analysis of the deposited data

Results flagged for a closer look

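A few contrasts ran in opposite directions at 8 h and 30 h with intervals apart at both times. Each rests on 1 library per condition, and the difference between the times was not tested. Of all genes, 11.2% did so for anti-IgM against BAFF, 8.70% for both stimuli against anti-IgM and 10.1% for both stimuli against BAFF, so such turns are common. Values are log2 differences of FPKM + 1.

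Bid with anti-IgM against BAFF differed by 0.291 at 8 h and -0.169 at 30 h, and reads over exons gave 0.33 and -0.16. Bak1 with both stimuli against anti-IgM differed by 0.329 at 8 h and -0.483 at 30 h, and by 0.29 and -0.46 by reads over exons. Bmf with both stimuli against BAFF differed by -0.309 at 8 h and 0.408 at 30 h, with -0.33 and 0.43 by reads.

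Bax with both stimuli against anti-IgM differed by 0.642 at 8 h and -0.438 at 30 h. By reads over exons the 8 h value was 0.18 and the 30 h value near 0, and by the most abundant form the 8 h value was -0.13. Bax with both stimuli against BAFF differed by 0.802 at 8 h and -0.407 at 30 h, and by 0.86 and -0.19 by reads over exons. With anti-IgM at 8 h the 5-exon form of Bax was the only one assembled, while the libraries of both stimuli and of BAFF held the 5-exon and the 6-exon form at each time.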

How the results depend on the processing

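Of 1440 recomputed member comparisons, 1399 stayed on the same side of the threshold, 29 became counted, 11 were no longer counted and 1 became counted with its sign turned. The sign also turned in 33 that were counted under neither setting, 16 of them by the most abundant transcript and 7 by reads over exons, at sizes of up to 0.77. With a threshold of 1.5-fold, 25 differences were counted against unstimulated cells (16 in the report), 4 when BAFF was added to anti-IgM (1) and 4 when anti-IgM was added to BAFF (0). Many of all genes were counted at 1.5-fold too. For anti-IgM added to BAFF, 1529 were higher and 1467 lower of 9812 at 8 h, and 957 and 1276 of 9981 at 30 h. For BAFF added to anti-IgM they were 984 and 524 of 9912, then 615 and 795 of 10099. Against unstimulated cells they ran from 1260 and 947 of 9957 (BAFF at 30 h) to 2213 and 1951 of 9832 (anti-IgM at 8 h). By the most abundant transcript only, the count for BAFF added to anti-IgM was 0. By reads over exons, Bbc3 with both stimuli at 30 h against unstimulated turned to 1.0012; the unstimulated library had only fragments of Bbc3. The counts between anti-IgM and BAFF (4) and between 30 h and 8 h (5) stayed within 1.5 times under all 12 alternatives. Setting unassembled genes to 0, ignoring the intervals, other FPKM minimums, transcripts of any length and pieces with no strand changed no member's call. Most of these settings could not have changed one. The 8 compared members were assembled in every library, reached 5 FPKM in every comparison and had no stranded piece under 300 bases. Only Bid had a piece with no strand that shared bases with its exons. The 1399 therefore include comparisons that could not move. Scaling moved the background: for anti-IgM at 8 h against unstimulated the median of all genes was 0.05 as deposited and -0.09 scaled to the upper quartile, and the share of counted genes that were higher was 50.7% as deposited, 42.5% centred and 39.0% by upper quartile.

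Leaving out a replicate was not possible with 1 library per condition. No paired analysis was possible for the same reason. The depth is known only as recovered reads, and a gene not listed as assembled has no limit on its level.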
